A study of Mus musculus with 6 samples.

Results

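The Notch genes described here are 10 of the 35027 genes in the expression table of the series, taken by symbol. They are the receptors Notch1, Notch2, Notch3 and Notch4, the ligands Jag1, Jag2 and Dll1, and the targets Hes1, Hey1 and Nrarp. RNA-seq was performed on cells sorted from mouse thyroid tumors for Kate, a red fluorescent reporter. YAP tumors expressed the nuclear mutant YAP S127A from a doxycycline (dox)-inducible transgene, and BrafYAP tumors carried this transgene together with Braf V600E, expressed from the endogenous gene. Both groups carried a Cre active in thyroid follicular cells and the Cre-dependent allele that gives the dox-responsive activator and Kate, and all mice were on a mixed background and received dox chow from 4 weeks of age by the labels. Each genotype had 3 libraries of about 20000 sorted cells, numbered 1, 2 and 3 for YAP and 1, 2 and 6 for BrafYAP. By the labels, 3 tumors were pooled for a YAP library and 1 tumor was used for a BrafYAP library, so that pooling and genotype cannot be told apart, and tumors without YAP S127A were not analysed here.

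Notch signaling passes between touching cells. A ligand of the Jagged or Delta-like family on one cell binds a Notch receptor on its neighbor, the receptor is cut by an ADAM protease and then by gamma-secretase, and the freed intracellular part joins the DNA-binding protein RBPJ and a Mastermind coactivator to switch on genes such as the HES and HEY repressors and Nrarp, which limits the signal. YAP and its DNA-binding partners of the TEAD family can themselves act on Jag1 and on Notch receptors in several epithelia.

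The libraries held 26.2 to 36.9 M estimated reads. BrafYAP replicate 6 stood apart. Its log2 values correlated with those of the other 5 libraries at 0.73 to 0.84 across genes, whereas pairs of YAP libraries gave 0.91 to 0.94 and BrafYAP replicates 1 and 2 gave 0.97. Results that change when this library is left out are given with and without it. Thyroid identity was carried by Pax8, at 5843 to 14237 reads in all 6 libraries, and epithelial keratins and cadherin were abundant, but Tshr was at 0 reads in BrafYAP replicates 1 and 2. Although cells were sorted for Kate, the libraries also held reads of genes used as markers of other cell types. The summed per-length level of 8 macrophage markers was 4223 to 12413 in YAP and 1273 to 2965 in BrafYAP libraries. That of 8 mural markers, nearly all of it Acta2, was 447 to 841 in YAP and 62.6 to 216 in BrafYAP libraries. Without Acta2 the mural sum was 17.5 to 31.9 and 24.6 to 35.5, so its lower value in BrafYAP rests on Acta2. The sum of 12 genes known to respond to tissue dissociation was 6130.5 to 11225 in YAP and 17305 to 23672 in BrafYAP libraries. In sorted bulk RNA, fewer cells of a type and less RNA per cell cannot be told apart. The YAP transgene and the Braf mutation were not checked from these gene values.

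Promoter windows from 250 bases before to 50 bases after the start site were taken from RefSeq (GRCm38.p6) and held 8 of the 10 genes. Hes1 and Hey1 had no entry. The windows of Jag1 and Nrarp are shown because these were the members whose groups did not overlap in the expression data. That of Hey2, a Notch target of the wider pathway list, is shown because, of the tested genes of that list's target group with a window, it held the letters of the RBPJ site and Hes6 and Il2ra did not. Hes5, Hes7 and Ptcra, which had too few reads to be tested, held TGGGAA as well. Capitals mark matches to the RBPJ core TGGGAA and its longer form GTGGGAA, to the TEAD motif CATTCC or to the AP-1 motif TGANTCA on either strand.
Jag1, chr2:137116471-137116770, minus strand: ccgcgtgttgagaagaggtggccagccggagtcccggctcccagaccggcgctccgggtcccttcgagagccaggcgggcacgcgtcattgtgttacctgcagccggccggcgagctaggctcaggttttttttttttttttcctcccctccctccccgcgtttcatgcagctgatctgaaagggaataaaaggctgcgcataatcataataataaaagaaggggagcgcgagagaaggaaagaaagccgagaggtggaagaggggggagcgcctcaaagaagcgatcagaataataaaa
Nrarp, chr2:25180508-25180807, plus strand: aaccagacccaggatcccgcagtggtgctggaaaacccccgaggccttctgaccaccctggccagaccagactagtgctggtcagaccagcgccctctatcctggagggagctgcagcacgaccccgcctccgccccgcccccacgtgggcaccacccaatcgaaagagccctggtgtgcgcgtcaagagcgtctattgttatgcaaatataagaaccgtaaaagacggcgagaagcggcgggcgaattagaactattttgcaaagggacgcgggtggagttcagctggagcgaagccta
Hey2, chr10:30842734-30843033, minus strand: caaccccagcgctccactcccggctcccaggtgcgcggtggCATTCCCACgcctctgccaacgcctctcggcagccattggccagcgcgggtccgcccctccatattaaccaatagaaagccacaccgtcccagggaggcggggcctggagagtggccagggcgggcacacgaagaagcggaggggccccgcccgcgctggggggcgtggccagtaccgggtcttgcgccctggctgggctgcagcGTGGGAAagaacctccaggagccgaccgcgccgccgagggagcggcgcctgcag
The Jag1 and Nrarp windows have no capitals, since none of these letters occurred in them. Hey2 had GTGGGAA in 2 places, once on the opposite strand 207 bases before the start, where it overlapped a CATTCC that began 209 bases before the start, and once in the forward direction 4 bases before it. Among the other windows of the 10 genes, Notch1 held CATTCC in 2 places, Notch4 held 1 CATTCC and 1 TGANTCA, and 1 of the 2 windows of Dll1 held 1 TGANTCA, and no window of the 10 genes held TGGGAA. Of all 32851 windows of this length, 25.6% held TGGGAA, 6.38% held GTGGGAA, 14.7% held CATTCC and 7.81% held TGANTCA. A match is a description of the letters and no measure of binding.

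To ask whether mutant Braf went with a different expression of the Notch genes, BrafYAP was compared with YAP within each gene. Values of a gene are given as scaled reads, which are the deposited abundances multiplied back by gene length so that 1 sequenced read equals 0.785 to 1.22 scaled reads depending on the library. Fold changes are log2 differences, BrafYAP minus YAP, on log2(scaled reads + 1) with the standard error (SE) from limma, n = 3 libraries per group. Levels of different genes were compared only per length, as scaled reads per exonic base rescaled to the same total in each library, here called the per-length level. The groups did not overlap in 1 ligand and 1 target, with Jag1 lower and Nrarp higher in BrafYAP tumors, and they overlapped in all 4 receptors. Neither difference passed adjustment over all genes.

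Across the table, 0 of 16832 genes tested had an adjusted p under 0.05 in limma (0%), and 3404 had an unadjusted p under 0.05 (20.2%, with 9.68% higher and 10.5% lower in BrafYAP). Voom on the estimated reads also gave 0 adjusted calls, with 3416 genes at an unadjusted p under 0.05. Among the Notch genes, 2 of 10 had an unadjusted p under 0.05, 1 in each direction, close to the share of the whole table. Without BrafYAP replicate 6, only Jag1 of the 10 had an unadjusted p under 0.05, while 142 genes of the table passed the adjusted threshold, none of them a Notch gene listed here. The groups did not overlap in the same 2 genes, against 28.7% of all genes tested. The median log2 fold change was 0.30 over the 10 genes and −0.12 over all genes. With 3 libraries against 3, an exact permutation test of a single gene cannot go below p = 0.1.

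**Figure D1:**
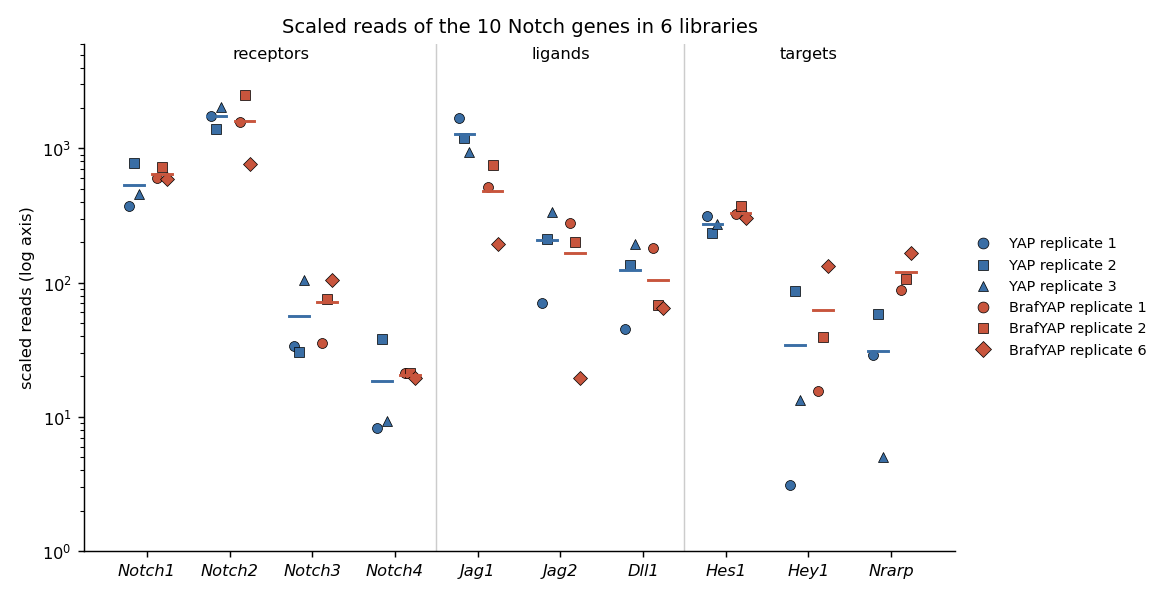
Scaled reads (log axis) of the 10 Notch genes, by role, with each point a library and each horizontal line the mean of a genotype (3 libraries). The BrafYAP libraries lie below every YAP library for Jag1 and above every YAP library for Nrarp, and the 2 groups overlap for the other 8 genes.

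Notch2 was the leading receptor. Its per-length level was 14 ± 3.16 (SD, n = 3) over YAP libraries and 13.4 ± 7.4 (SD, n = 3) over BrafYAP libraries, and it made up 55.6 to 83.7% of the summed receptor level of a library. Notch1 followed with 13.5 to 32.4%, Notch3 had 1.95 to 10.1% and Notch4, best known from endothelial cells, had 0.489 to 2.43%. Notch2 lay above Notch1 and Notch1 above Notch3 in every library. Notch3 lay above Notch4 in all libraries but YAP replicate 2. The summed receptor level was 16.1 to 21.3 in YAP and 11.4 to 26.8 in BrafYAP libraries, so the ranges overlapped.

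Notch2 (chromosome 3, 98013527 to 98150361, plus strand, mm10) had 1745, 1407 and 2040.4 scaled reads in YAP replicates 1, 2 and 3 and 1559, 2494 and 771 in BrafYAP replicates 1, 2 and 6. The highest and the lowest value were both BrafYAP. Its log2 fold change was −0.25 (SE 0.45, 95% interval −1.31 to 0.81, adjusted p = 0.781 in limma), and without BrafYAP replicate 6 the sign turned, to 0.20.

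Notch1 (chromosome 2, 26457903 to 26516663, minus strand) had 373, 782 and 453 scaled reads in YAP and 602, 722 and 593 in BrafYAP libraries. The BrafYAP libraries were close together and lay between YAP replicates 3 and 2. Its log2 fold change was 0.32 (SE 0.35, 95% interval −0.51 to 1.15, adjusted p = 0.635 in limma).

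Notch3, a receptor known from mural cells, had 33.9, 30.6 and 105 scaled reads in YAP and 35.4, 75.2 and 105 in BrafYAP libraries. One library of each genotype thus reached the same value. For Notch3 (chromosome 17, 32120820 to 32166852, minus strand) the log2 fold change was 0.44 (SE 0.66, 95% interval −1.10 to 1.99, adjusted p = 0.728 in limma). Notch4, on the same chromosome at 34564268 to 34588503, plus strand, had 8.22, 37.9 and 9.27 scaled reads in YAP and 21, 21.2 and 19.5 in BrafYAP libraries. YAP replicate 2 was above and the other YAP libraries were below the BrafYAP libraries, and Notch4 rested on 8 to 31 estimated reads per library. Its log2 fold change was 0.48 (SE 0.73, 95% interval −1.23 to 2.20, adjusted p = 0.733 in limma). Each of the 4 receptor genes overlaps at least 1 other annotated gene, and whether counting used strand is not given in the sources used here, so that reads could be shared.

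**Figure D2:**
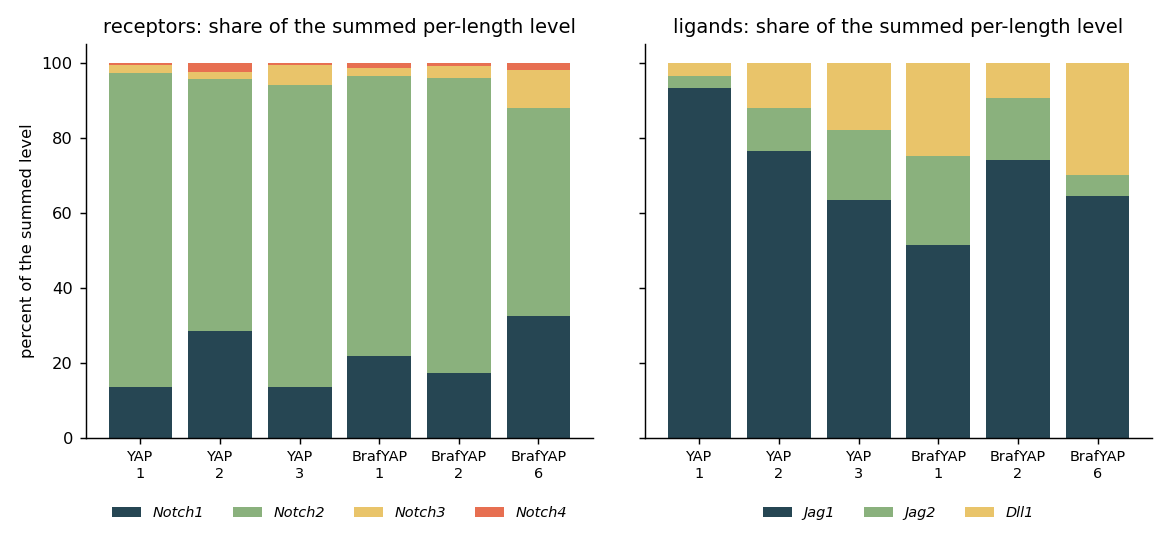
Share of the summed per-length level (percent, axes from 0) taken by each receptor (left) and each of the 3 ligands (right) in each library. Notch2 takes 55.6 to 83.7% of the receptor sum and Jag1 takes 51.5 to 93.3% of the ligand sum.

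Of the 3 ligands, Jag1 led in every library, and it was lower in BrafYAP tumors. It is a membrane-bound ligand found in many epithelia and in mural cells. Jag1 (chromosome 2, 137081456 to 137116644, minus strand, with no overlapping gene) had 1694, 1186 and 944 scaled reads in YAP and 513, 749.6 and 193 in BrafYAP libraries. Every BrafYAP library lay below every YAP library, and BrafYAP replicate 6 was the lowest. Per length, its level averaged 18.9 ± 5.41 (SD, n = 3) over YAP and 7.51 ± 4.41 (SD, n = 3) over BrafYAP libraries. This was a log2 fold change of −1.56 (SE 0.53, 95% interval −2.80 to −0.31), that is 2.94-fold lower with an interval of 1.24- to 6.99-fold, with an unadjusted p of 0.0212 and an adjusted p of 0.174 in limma. Without BrafYAP replicate 6 it was −1.0 with an unadjusted p of 0.0312, and without YAP replicate 1 the unadjusted p was 0.0669.

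The lower Jag1 went with lower values of the macrophage markers and of Acta2 in BrafYAP libraries. All 8 macrophage markers had an unadjusted p under 0.05 on the lower side and 7 of them did not overlap between the groups, and Acta2, one of the mural markers, was at 10089 to 20106 estimated reads in YAP and 756 to 5809 in BrafYAP libraries. Of the 8 mural markers, only Acta2 had an unadjusted p under 0.05 and lay lower without overlap, Des lay higher in every BrafYAP library, and without Acta2 the summed level was 17.5 to 31.9 in YAP and 24.6 to 35.5 in BrafYAP libraries. No macrophage or mural marker was at 0 in any library. Their part in the Jag1 difference was not tested.

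Jag2, a second Jagged ligand, had 69.9, 213 and 336 scaled reads in YAP and 280.3, 199 and 19.5 in BrafYAP libraries. The groups overlapped and each held 1 low library. Its log2 fold change (chromosome 12, 112907819 to 112929776, minus strand) was −0.71 (SE 1.06, 95% interval −3.20 to 1.77, adjusted p = 0.727 in limma), and without BrafYAP replicate 6 it turned to 0.46. Dll1, a Delta-like ligand, had 45.1, 134 and 193 scaled reads in YAP and 179, 68.2 and 64.6 in BrafYAP libraries. These values overlapped over most of their range. The log2 fold change of Dll1 (chromosome 17, 15367354 to 15376872, minus strand) was −0.19 (SE 0.67, 95% interval −1.76 to 1.38, adjusted p = 0.894 in limma), and its sign turned when any of 3 libraries was left out.

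The mix of ligands overlapped between the genotypes. Jag1 made up 93.3, 76.5 and 63.3% of the summed per-length level of the 3 ligands in YAP and 51.5, 74.2 and 64.6% in BrafYAP libraries. Jag2 and Dll1 had close average per-length levels, 2.37 and 2.39 over the 6 libraries. They parted in BrafYAP replicate 2, at 2.61 and 1.47, and the other way in BrafYAP replicate 6, at 0.249 and 1.36. The summed ligand level was 22.1 to 26.8 in YAP and 4.54 to 15.8 in BrafYAP libraries, and this gap followed Jag1.

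Nrarp, the feedback inhibitor that is induced by Notch and binds the receptor's intracellular part, was higher in BrafYAP tumors. It is a gene of a single exon (chromosome 2, 25180758 to 25183339, plus strand) that overlaps the predicted gene Gm38287 on the opposite strand. It had 29, 58.6 and 5.01 scaled reads in YAP and 87.5, 106 and 167 in BrafYAP libraries, from 4.86 to 188 estimated reads. Every BrafYAP library lay above every YAP library, and YAP replicate 3 was far below the other YAP libraries. Per length, this was a level of 1.01 ± 0.857 (SD, n = 3) over YAP and 4.17 ± 1.4 (SD, n = 3) over BrafYAP libraries. BrafYAP and YAP differed by a log2 fold change of 2.40 (SE 0.85, 95% interval 0.40 to 4.40), that is 5.29-fold with an interval of 1.32- to 21.2-fold, with an unadjusted p of 0.0248 and an adjusted p of 0.186 in limma. Without YAP replicate 3 the log2 fold change was 1.47 with an unadjusted p of 0.0395. Without BrafYAP replicate 6 it was 2.14 with an unadjusted p of 0.0618, and without BrafYAP replicate 2 that p was 0.0512.

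Nrarp was higher in the same libraries as most of the genes known to respond to tissue dissociation. Of the 12 genes on that list, 7 had an unadjusted limma p under 0.05 on the higher side and 0 on the lower side. The groups of 7 did not overlap, among them Jun, Junb, Egr1 and Ier2, while those of Fos, Fosb, Atf3, Ier3 and Nr4a1 overlapped. Whether the level of these genes followed handling or the genotype was not tested, and neither was their part in the Nrarp difference.

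Hes1, a basic helix-loop-helix repressor that is also controlled by other signals, was the steadiest of the 10 genes. It had 313, 235 and 274 scaled reads in YAP and 323, 369.7 and 302 in BrafYAP libraries, a ratio of 1.57 between the highest and the lowest library. Only YAP replicate 1 reached into the BrafYAP range. Its per-length level averaged 11.7 ± 1.86 (SD, n = 3) over YAP and 14.6 ± 1.76 (SD, n = 3) over BrafYAP libraries. The log2 fold change (chromosome 16, 30064384 to 30067796, plus strand) was 0.28 (SE 0.29, 95% interval −0.41 to 0.97, adjusted p = 0.614 in limma), so that a change above 1.96-fold in Hes1 lay outside the interval. Under median-ratio scaling, which moved the median of all genes by 0.12 on the log2 scale, the groups of Hes1 did not overlap. They also did not overlap without BrafYAP replicate 6 or without YAP replicate 1. The overlap came only from YAP replicate 1 lying above BrafYAP replicate 6, so leaving out either library removes it by construction.

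Hey1, a related repressor known from endothelial cells, was the most variable of the 10 genes. It had 3.08, 86.8 and 13.4 scaled reads in YAP and 15.5, 39.2 and 132 in BrafYAP libraries, a ratio of 42.9 between the highest and the lowest. BrafYAP replicate 6 and YAP replicate 2 were the highest libraries, and the groups overlapped. The log2 fold change (chromosome 3, 8663359 to 8667256, minus strand) was 1.37 (SE 1.24, 95% interval −1.55 to 4.29, adjusted p = 0.558 in limma), and it ranged from 0.33 without YAP replicate 1 to 2.54 without YAP replicate 2, with 0.58 without BrafYAP replicate 6. BrafYAP replicate 6 also had the highest summed level of 10 endothelial markers, at 93.7 against 8.23 to 40 in the other 5, and Erg was at 0 in 1 library. The 40 of YAP replicate 2 came mostly from Kdr. Without Kdr the sum was 88.9 in BrafYAP replicate 6, 11.0 in YAP replicate 2 and 7.66 to 17.6 over all libraries but BrafYAP replicate 6. The part of these markers in the Hey1 values was not tested.

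**Figure D3:**
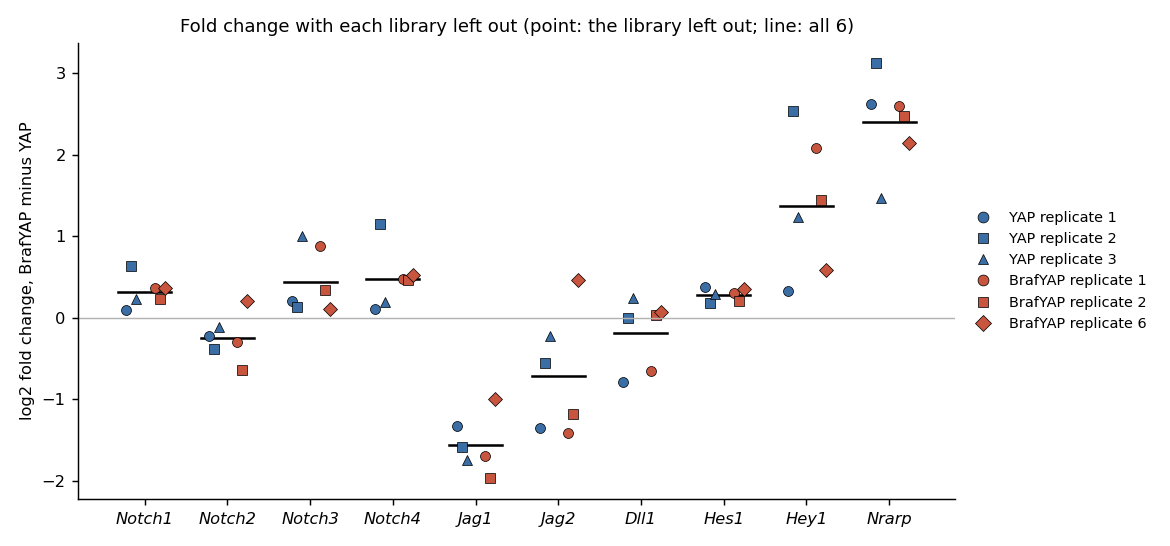
Log2 fold change (BrafYAP minus YAP) of each Notch gene with 1 library left out, with the point named by the library left out and the horizontal line giving the value from all 6. Jag1 stays between −1.97 and −1.0 and Nrarp between 1.47 and 3.12, while Notch2, Jag2 and Dll1 lie on both sides of 0.

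The rest of the pathway was described by 48 further genes, of which 40 passed the minimum of 10 scaled reads on average. Of these 40, 7 had an unadjusted p under 0.05 in limma, 2 higher and 5 lower in BrafYAP, against 20.2% of all genes tested. Their median log2 fold change was −0.18. The groups of 9 of the 40 did not overlap, 2 higher and 7 lower, against 28.7% of all genes. Low values left Dll3, Dlk2, Dtx1, Hes2, Hes3, Hes5, Hes7 and Ptcra untested.

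Of the HES and HEY factors outside the 10 genes, Heyl and Hey2 were lower and Hes6 was higher in BrafYAP tumors. Heyl, a HEY repressor known from mural cells, had 729.9, 741 and 344 scaled reads in YAP and 186, 95 and 76.4 in BrafYAP libraries. No library of one group reached the other. Its log2 fold change was −2.36 (SE 0.48, 95% interval −3.49 to −1.22, adjusted p = 0.0901 in limma), 5.13-fold lower, and it ranged from −2.73 to −2.09 when each library was left out in turn. Hey2, whose promoter letters are shown above, had 272, 484 and 186 scaled reads in YAP and 154, 133 and 63.1 in BrafYAP libraries. Again the groups did not overlap, and the log2 fold change was −1.41 (SE 0.51, adjusted p = 0.193 in limma). Its unadjusted p of 0.0272 became 0.0537, 0.0937 and 0.0642 without YAP replicate 1, YAP replicate 2 or BrafYAP replicate 6.

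Hes6, a member of the HES family that counteracts Hes1, went the other way. It had 83.3, 1529.9 and 407 scaled reads in YAP and 2467, 3186 and 2597 in BrafYAP libraries. The BrafYAP libraries were close together and above the widely spread YAP libraries. Its log2 fold change was 2.87 (SE 0.93, 95% interval 0.67 to 5.06, adjusted p = 0.163 in limma), 7.3-fold, and it was 1.79 without YAP replicate 1 and 3.88 without YAP replicate 2. Per length, Hes6 was the most abundant of the 5 factors Hes1, Hey1, Hey2, Heyl and Hes6 in BrafYAP libraries, at 85.4 to 88.0% of their sum, and it took 11.4, 68.3 and 47.7% in the YAP libraries. In YAP replicate 1, Hes1 took 38.1% and Heyl 35.5%. Heyl and Hey2 were lower in the same libraries as the macrophage markers and Acta2, and Hes6 was higher in those with more of the dissociation genes, and the part of these genes was not tested.

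**Figure D4:**
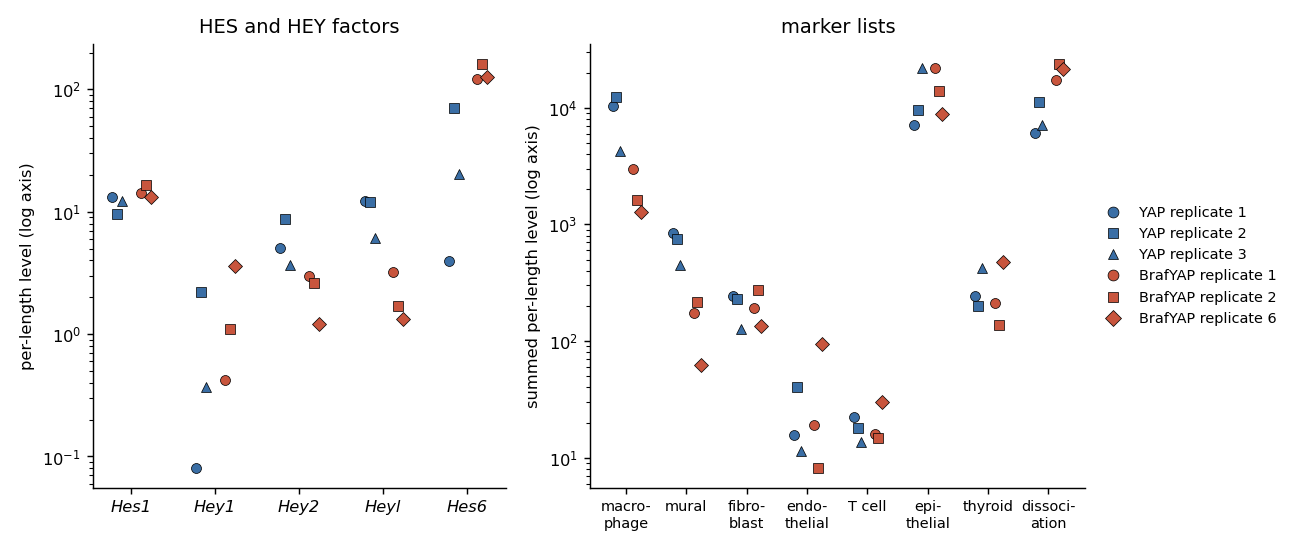
Per-length level (log axis) of 5 HES and HEY factors (left) and summed per-length level (log axis) of 7 cell type marker lists and of the dissociation genes (right), with each point a library. Heyl and Hey2 are lower and Hes6 is higher in all 3 BrafYAP than in all 3 YAP libraries, the macrophage sum and the mural sum, which is mostly Acta2, are lower, and the dissociation sum is higher.

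Of the other ligands, Dll3 was at 0 reads in 5 libraries and 1 read in YAP replicate 3. Dll4, a ligand of endothelial cells, had 1.03, 12.2 and 16.5 scaled reads in YAP and 1.11, 14.1 and 328 in BrafYAP libraries. Only BrafYAP replicate 6, which had the most endothelial marker reads, stood out. The log2 fold change of Dll4 was 1.50 (SE 1.83, adjusted p = 0.668 in limma). Dlk1, a non-canonical ligand that is imprinted and abundant in fetal and endocrine cells, had 3.08, 1.22 and 5.15 scaled reads in YAP and 115, 1.57 and 118015 in BrafYAP libraries. Nearly all of it was in BrafYAP replicate 6.

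Nicastrin, encoded by Ncstn and part of gamma-secretase, was more abundant per length than any receptor, with a level of 315 over the 6 libraries. Ncstn overlaps Copa on the opposite strand, so that reads could be shared. Between genotypes it had a log2 fold change of −0.17 (SE 0.29), with an interval that held 0. Adam17, a sheddase that can cut Notch, had 3879, 3742 and 2369 scaled reads in YAP and 1638, 1559.8 and 1744 in BrafYAP libraries. Its groups did not overlap, and the log2 fold change was −0.98 (SE 0.29, adjusted p = 0.143 in limma). Adam17 overlaps Iah1 on the opposite strand, so shared reads are possible. Neurl1b, a ubiquitin ligase for ligands, was also lower, with 74.0, 70.9 and 48.4 against 7.76, 16.5 and 23.1 scaled reads and a log2 fold change of −2.06 (SE 0.57, adjusted p = 0.128 in limma). Epn2 and Mib2, which act in ligand uptake, had log2 fold changes of 0.46 (SE 0.41) and 1.45 (SE 1.03), with Mib2 at 68.9 scaled reads in YAP replicate 1 and 555 to 1617 elsewhere. For Mib2 the value was 0.19 without YAP replicate 1 and 2.46, with an unadjusted limma p of 0.0276, without YAP replicate 2. Poglut1, which glycosylates the receptor, lay lower in every BrafYAP library by a small amount (log2 fold change −0.30, SE 0.27, adjusted p = 0.559 in limma), and Mfng, a fringe glycosyltransferase, had −0.94 (SE 0.58).

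In the nucleus, Rbpj, the DNA-binding partner of Notch, had 1166, 584 and 789.9 scaled reads in YAP and 607, 657 and 469 in BrafYAP libraries. The groups overlapped, with a log2 fold change of −0.51 (SE 0.35, 95% interval −1.32 to 0.31, adjusted p = 0.438 in limma). Maml3, a Mastermind coactivator, was higher, with 46.3, 68.5 and 59.7 scaled reads in YAP and 153, 159 and 229 in BrafYAP libraries. This was a log2 fold change of 1.61 (SE 0.38, 95% interval 0.72 to 2.50, adjusted p = 0.106 in limma), 3.05-fold, and it stayed between 1.42 and 1.73 when each library was left out in turn. Maml3 spans 15 other annotated genes, so shared reads are possible. Snw1, a cofactor of the complex that overlaps Slirp on the opposite strand, had −0.19 (SE 0.25). Among the inhibitors, Numb had −0.03 (SE 0.26) and Dtx3, a member of the Deltex family, had −0.44 (SE 0.30) with no overlap between the groups. Il2ra, a Notch target of T cells, was at 74.0, 48.9 and 46.3 scaled reads in YAP and 14.4, 7.06 and 33.7 in BrafYAP libraries, with a log2 fold change of −1.79 (SE 0.66, adjusted p = 0.2 in limma). Its unadjusted p of 0.0294 stayed under 0.05 only when BrafYAP replicate 6 was the library left out.

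**Figure D5:**
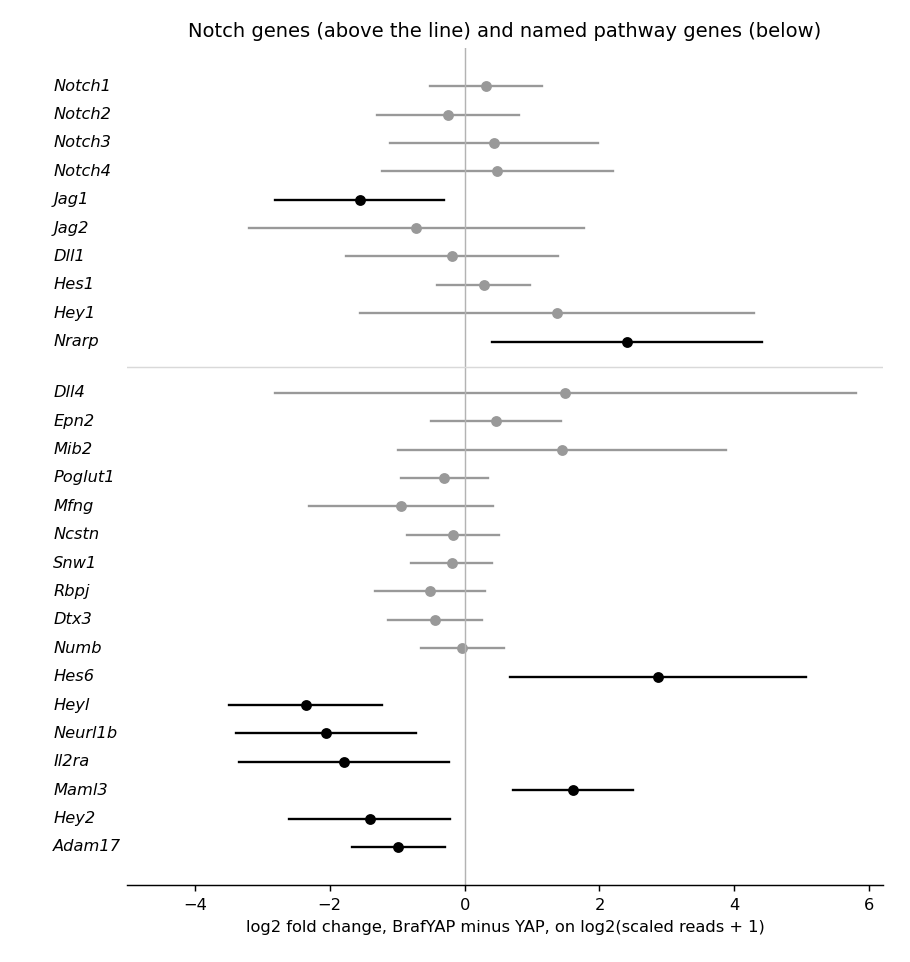
Log2 fold change (points) with 95% interval (lines), BrafYAP minus YAP on log2(scaled reads + 1), for the 10 Notch genes above the line and the named pathway genes below it, with black for an unadjusted limma p under 0.05. Dlk1 and Dll3 are among the genes not drawn. Jag1 and Nrarp among the 10 genes, and Hes6, Heyl, Neurl1b, Il2ra, Maml3, Hey2 and Adam17 below, have intervals that leave out 0.

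The profiles of the 3 targets over the 6 libraries were set beside those of the other 49 tested genes of the pathway, each centered on its own mean log2 value. The genes nearest to Hes1 were Ncstn, with a root-mean-square difference of 0.272 on the log2 scale, and Numb, with 0.290, where the median over the 49 genes was 0.656. This difference is not scaled by spread, so steady genes lie near each other whatever their direction. Ncstn had a log2 fold change of −0.17 and Hes1 one of 0.28. Those nearest to Nrarp were Maml3 with 1.06 and Notch4 with 1.24, against a median of 1.74. Mib2 with 0.802 and Adam10 with 1.00 were the nearest to Hey1, against a median of 1.82. None of the 3 targets was among the 2 nearest genes of another target.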

How the data were processed

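RNA-seq was performed on total RNA amplified by SMART-Seq over 12 cycles, made into libraries over 8 PCR cycles and sequenced as 50-nt pairs. The authors aligned reads with STAR 2.6.1d to mm10, quantified Ensembl 95 genes with Partek and deposited TPM with 0.0001 added. Deposited TPM had been divided by genomic span, introns included: 71.5 to 75.7% of low values were then within 0.05 of whole reads, against 21.1 to 25.8% with exonic length (GENCODE M21). The division was undone to estimate reads. Groups follow the titles. Genes averaging at least 10 scaled reads were fitted, on log2(scaled reads + 1), with limma 3.58.1 in R 4.3.3 (eBayes with trend, two-sided, Benjamini-Hochberg over all genes, threshold 0.05), and the scripts were checked on simulated data. The paper's methods give 1 tumor per replicate and, like the labels, dox from 4 weeks, while its results text gives 3 months. The labels were followed. P-values measure the spread between these libraries. Read numbers carry no molecular identifiers and cover counting error only. The members and lists were chosen with earlier results of these data known. Named genes are the 10 members, the 2 most abundant genes per pathway role, listed genes with an unadjusted p under 0.05 and no overlap, and Dll3, Dll4 and Rbpj. One gene that this rule names is not reported here. Alternatives were the deposited values (mean of at least 1), pseudocounts of 10 and 0.1, a minimum of 100 or none, quantile and median-ratio normalization, no trend, array weights, voom, a replicate block, the longest transcript as length, and each library left out.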

Additional observations from a re-analysis of the deposited data

How the results depend on the processing

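The number of genes past the adjusted threshold, 0 in the reported fit, was 18 with the deposited values, 45 with a pseudocount of 10, 62 with quantile normalization, 20 without a trend and 4653 with array weights, and 0 to 142 when each library was left out, with 142 without BrafYAP replicate 6 and 3 without YAP replicate 2. The cause was not tested. None of the 10 Notch genes was among the calls except Nrarp with array weights (log2 fold change 3.56, adjusted p = 0.0071, over a range of 0.0071 to 0.381 for Nrarp and 0.0621 to 0.399 for Jag1). Array weights ran from 0.221 for BrafYAP replicate 6 to 4.81 for YAP replicate 3, with 0.394 and 0.534 for YAP replicates 1 and 2. Nrarp was lowest in YAP replicate 3, at 4.86 estimated reads, so the YAP side of its weighted change rests mostly on that library. The number of Notch genes at an unadjusted p under 0.05, 2 as reported, was 0 with the deposited values, where the minimum left only Hes1 of them, 1 with a minimum of 100 scaled reads, which removed Nrarp, 0 with the replicate block, and 1 to 2 with a library left out, with 1 without YAP replicate 1 and without BrafYAP replicates 2 or 6. Of the wider list, 7 genes as reported became 2 with the deposited values and 12 with array weights. Over all genes tested, an unadjusted p under 0.05 was reached by 1455 of 7319 with the deposited values. With array weights it was reached by 6916 of 16832. With array weights, where 4653 of all 16832 genes passed the adjusted threshold in limma, so did some named genes of this list. These were Hes6, Heyl, Neurl1b, Il2ra, Maml3, Adam17 and Dtx3, with adjusted values of 0.0065 to 0.0456. Hey2, at −0.58, lost its call there, with an unadjusted limma p of 0.112. The groups of 2 to 5 Notch genes did not overlap with a library left out, with Notch1, Notch4 and Hey1 added without YAP replicate 2. Hes1 was added without YAP replicate 1 or BrafYAP replicate 6, and Notch3 without YAP replicate 3. Leaving out a library can only keep or add genes without overlap. The share over all genes was not taken in these settings, so no result about the added genes is drawn. Signs turned for Notch2 (0.33 with the replicate block), Notch3 (−0.81 with array weights), Jag2 (0.95 with the replicate block) and Dll1 (0.50 with the replicate block), and with a library left out Notch2 ranged from −0.64 to 0.20, Jag2 from −1.42 to 0.46 and Dll1 from −0.79 to 0.24. The log2 fold changes of Jag1 and Nrarp kept their sign in every setting. Replicate numbers 1 and 2 occur in both groups, while YAP replicate 3 and BrafYAP replicate 6 share their number with no other library. In the replicate block these unmatched libraries add nothing to the fold change, which rests on replicates 1 and 2 of each group. The sign turns of Notch2, Jag2 and Dll1 with the block thus come from a comparison without YAP replicate 3 and BrafYAP replicate 6. Deviations of same-numbered libraries correlated at −0.031 and 0.047, within the −0.062 to 0.071 of all pairings. These deviations were taken from the mean of each group of 3 libraries, so they cannot show whether same-numbered libraries shared handling. With the replicate block, Jag1 was −1.19 (unadjusted p = 0.0612) and Nrarp 1.20 (unadjusted p = 0.0811), with 0 adjusted calls, and Hes6 and Hey2 had an unadjusted p of 0.0516 and 0.0539. Notch2's share of the receptor level, 73.4% on average, was 67.1% with the longest transcript. Depth limits Hey1, Notch4 and Nrarp, which had under 10 reads in a YAP library.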
